A study of Mus musculus with 108 samples.

Results

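The genes of glycolysis, of lactate and pyruvate handling and of the response to low oxygen were followed cell by cell in cultured mouse germline stem cells. The members were the rows of the deposited expression table whose symbol was among 38 listed symbols, and 37 of these were found among its 26218 genes. The symbol Pkm, which stands for muscle pyruvate kinase, was not a row, and the same Entrez gene stood in the table under its older symbol Pkm2, which is described once below outside the member counts. The culture lines were GSC1 and GSC2, which are germline stem cells (GSCs, cultured spermatogonial stem cells), and GSCLC1 and GSCLC4, which are GSC-like cells (GSCLCs) that the study derived from pluripotent stem cells. One GSC1 cell was set aside from the start, and 29 GSC1 cells, 24 GSC2 cells, 30 GSCLC1 cells and 24 GSCLC4 cells were used. All 4 lines carried the AcrAct_EGFP reporter on the background strain 129/SvJcl x C57BL/6. For each line a trypsin treatment of 4 minutes is given. All grew in one medium, StemPro-34 SFM with its supplement, glutamine, vitamins, AlbuMAX-II, 2-mercaptoethanol, nonessential amino acids, ITS-G, antibiotics, 1% FBS, 30 µg/ml pyruvic acid, GDNF at 10 ng/ml, bFGF at 10 ng/ml, LIF and EGF. The labels trace GSC2 to testes of its own at postnatal day 7 and GSCLC4 to reconstituted testes held at 34 °C for 3 weeks, and they say nothing of the kind for GSC1 or GSCLC1. They do not say how many animals or clones a line stands for, so a p-value here measures only the spread between lines. No group was grown at a changed oxygen or glucose level, so hypoxia-linked is a name for the genes and not for a treatment.

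Glycolysis splits a glucose molecule in steps catalysed by separate enzymes, from hexokinase through phosphofructokinase, aldolase, glyceraldehyde-3-phosphate dehydrogenase and enolase to pyruvate kinase. Lactate dehydrogenase converts pyruvate to lactate, monocarboxylate transporters carry lactate and pyruvate across the membrane, and pyruvate dehydrogenase kinases restrain the entry of pyruvate into the mitochondrial citrate cycle. Most steps are encoded by several genes with different tissue use, and the testis has isozymes of its own that appear in meiotic and haploid germ cells, among them Pgk2, Gapdhs and Ldhc. The transcription factor HIF1A raises many of these genes when oxygen falls, and the prolyl hydroxylases EGLN1 and EGLN3 mark it for degradation when oxygen is present.

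The HIF1A dimer binds the core RCGTG, so the letters ACGTG and GCGTG were searched on both strands of the RefSeq promoter windows of build GRCm38.p6, each 250 bases before to 50 bases after a start. On the opposite strand these read CACGT and CACGC, and the palindrome CACGTG, which other factors also bind, counts as a match on each strand. Windows were found for 35 of the 37 members. At least 1 match lay in 40 of their 53 windows (75.5%), against 43.8% of all 32851 windows. The members' windows also held more CG dinucleotides, a median of 15 against 7, and the motif contains one. The 250 bases before the start are shown for the 4 members with the lowest unadjusted p-values between GSCLC and GSC lines, for Ldha, whose difference had the other sign, and for Pgk2, the germ cell paralog of Pgk1 that was near 0 in all lines. Capitals mark the matches. Each window is the first annotated one by coordinate, and the sequences read 5′ to 3′ on the gene's strand.
Bnip3: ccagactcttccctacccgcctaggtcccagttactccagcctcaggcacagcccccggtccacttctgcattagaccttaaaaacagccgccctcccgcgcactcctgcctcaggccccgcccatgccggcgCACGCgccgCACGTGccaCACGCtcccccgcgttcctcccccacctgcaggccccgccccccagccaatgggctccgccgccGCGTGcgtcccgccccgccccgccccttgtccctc
Egln1: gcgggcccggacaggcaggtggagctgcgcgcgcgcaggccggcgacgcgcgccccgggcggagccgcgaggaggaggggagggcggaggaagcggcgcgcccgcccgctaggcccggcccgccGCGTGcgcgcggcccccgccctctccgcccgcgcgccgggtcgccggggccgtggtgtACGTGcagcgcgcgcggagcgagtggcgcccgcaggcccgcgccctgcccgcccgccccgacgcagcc
Pfkp: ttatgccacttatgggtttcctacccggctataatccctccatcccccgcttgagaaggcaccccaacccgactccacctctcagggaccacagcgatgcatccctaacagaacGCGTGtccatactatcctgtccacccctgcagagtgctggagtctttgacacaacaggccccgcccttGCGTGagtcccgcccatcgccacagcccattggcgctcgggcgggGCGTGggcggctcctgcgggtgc
Pgk1: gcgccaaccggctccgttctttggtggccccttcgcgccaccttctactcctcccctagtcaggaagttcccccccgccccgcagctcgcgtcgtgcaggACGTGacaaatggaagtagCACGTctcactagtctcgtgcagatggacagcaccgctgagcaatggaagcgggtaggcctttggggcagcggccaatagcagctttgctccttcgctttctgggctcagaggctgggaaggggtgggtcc
Pgk2: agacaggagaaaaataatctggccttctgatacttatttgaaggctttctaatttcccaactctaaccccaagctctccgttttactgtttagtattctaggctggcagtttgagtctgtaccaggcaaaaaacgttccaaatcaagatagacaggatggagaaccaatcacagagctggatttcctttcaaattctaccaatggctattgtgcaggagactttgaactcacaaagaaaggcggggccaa
Ldha: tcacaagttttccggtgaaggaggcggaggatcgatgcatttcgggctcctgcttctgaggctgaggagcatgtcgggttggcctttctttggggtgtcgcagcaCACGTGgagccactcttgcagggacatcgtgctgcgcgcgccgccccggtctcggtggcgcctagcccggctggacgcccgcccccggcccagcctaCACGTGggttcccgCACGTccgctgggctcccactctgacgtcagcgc
In these stretches Bnip3 (chr7:138909507-138909756, minus strand) had 5 matches and 24 CG dinucleotides, and Egln1 (chr8:124949255-124949504, minus strand) had 2 matches and 51. Pfkp (chr13:6648772-6649021, minus strand) had 3 matches and 16 CG dinucleotides, and Pgk1 (chrX:106186850-106187099, plus strand) had 2 and 17. Ldha (chr7:46845554-46845803, plus strand) had 5 matches and 25 CG dinucleotides. Windows without a match included those of Gpi1 and Tpi1. Pgk2 (chr17:40208610-40208859, minus strand) had no match and 3 CG dinucleotides, and 42% of its bases were G or C against 62.8% in Pgk1. A match is a run of letters and was not tested for binding.

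Expression was given in RPM, read numbers scaled to the size of each library, and SC3-seq reads the 3′ ends of polyadenylated RNA, so levels of different genes are compared in RPM without division by length. The depth estimated from the table was 2.00 M to 6.04 M reads per cell (median 3.47 M), so 5 RPM, used here as the floor for calling a gene present in a cell, was about 10 reads or more. The 10 germ cell markers summed to 5673 to 6215 RPM in the line means, with Dazl and Ddx4 high in each, so the labelled cell type carried its markers. The 10 fibroblast and feeder markers made up 927 and 606 RPM in GSC1 and GSC2 against 262 and 500.5 RPM in GSCLC1 and GSCLC4, mostly Lgals1, Vim and Fn1. Of the others, Col1a1, Sparc and Postn reached up to 23.2, 21.8 and 26.8 RPM in a line, and Col1a2, Col3a1, Col6a1 and Dcn no more than 1.34 RPM. Fn1, Sparc, Postn and Col6a1 were highest in GSCLC4, unlike the sum. The 8 Sertoli markers summed to 11.9, 8.28, 19.6 and 76.8 RPM in the same order, with Wt1 at 25.8 and Rhox5 at 37.2 RPM in GSCLC4 and Amh at 0 throughout, and the 7 Leydig and peritubular markers to 42.3, 54.6, 15.3 and 14.4 RPM, with Cyp11a1 at 0. The fibroblast and the Leydig and peritubular sums of line means were thus higher in both GSC lines. The latter sum rested mostly on Acta2 in GSC1 and on Pdgfra in GSC2, while Star was highest in GSCLC1 and Insl3 in GSCLC4. In the median cell the Leydig and peritubular sum was highest in GSCLC4, at 7.06 RPM against 1.55 and 1.52 RPM in GSC1 and GSC2. In GSCLC1 it was 0.282 RPM. The part of such sums in the differences below was not tested. No pair of cells had identical values.

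Of the 37 members, 5 had at least 5 RPM in every cell: Gapdh, Gpi1, Pgam1, Eno1 and Bnip3l. Another 12 were present in at least 75% of cells, 4 in 25% to under 75%, and 13 in some but fewer. The remaining 3, Gapdhs, Pgk2 and Pgam2, reached 5 RPM in no cell. A count of 0 allows a share of up to 11.9%, 14.2%, 11.6% and 14.2% of cells in GSC1, GSC2, GSCLC1 and GSCLC4. These are upper exact 95% limits that take the cells of a line as independent. A cell held 11 to 23 members above this floor, with a median of 19. The members together made up 2672 to 8742 RPM of a cell, and this sum averaged 4712 RPM and 4885 RPM in GSC1 and GSC2 against 4247 RPM and 4432 RPM in GSCLC1 and GSCLC4. In the median cell it was 4000 RPM and 4380 RPM in GSC1 and GSC2 against 4107 RPM and 4234 RPM in GSCLC1 and GSCLC4. On medians the types thus overlapped, with GSC1 the lowest line. Gapdh alone was 31.4% to 35.8% of the sum in each line, and its level was also the steadiest, with a coefficient of variation over cells of 0.307 to 0.365.

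**Figure D1:**
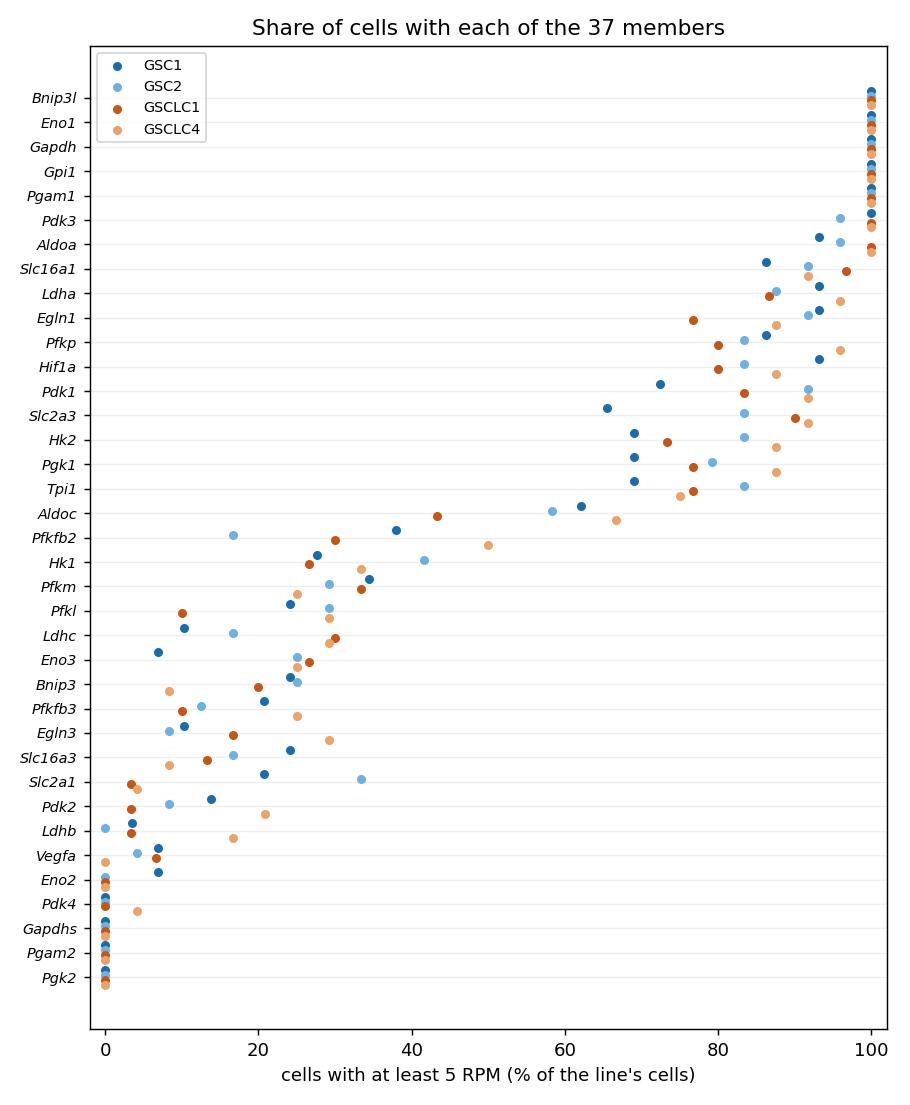
Share of cells of each line (horizontal axis, percent) in which each of the 37 members (vertical axis) had at least 5 RPM; each point is 1 line. The 5 ubiquitous members sit at 100% in all 4 lines, and Gapdhs, Pgk2 and Pgam2 at 0.

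Between the types, no tested member passed the threshold. The 26 members whose mean reached 5 RPM in 2 or more lines were tested within a limma fit of all 10519 such genes, with 2 GSC lines against 2 GSCLC lines, and 11 members were too low to test. None had an adjusted p under 0.05, against 10 of all tested genes (0.0951%). At an unadjusted p under 0.05 there were 4 of 26 members, all lower in GSCLC lines (Pfkp, Egln1, Pgk1 and Bnip3), where 8.93% of all tested genes met this level in either direction and 3.86% in the lower direction. The differences leaned one way: 19 of 26 (73.1%) were negative against 47.2% of all tested genes, and the median log2 difference was -0.20 against 0.03. Both GSCLC lines lay below both GSC lines for 11 of 26 members, beside 17.6% of all tested genes, and above them for 1, Ldha, beside 21.4%. With 2 lines against 2 an exact permutation test of a single gene cannot go below p = 0.333. Since the members were chosen with earlier results of these data known, and a lower glycolysis list was among those results, the lean is a description and not independent support.

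**Figure D2:**
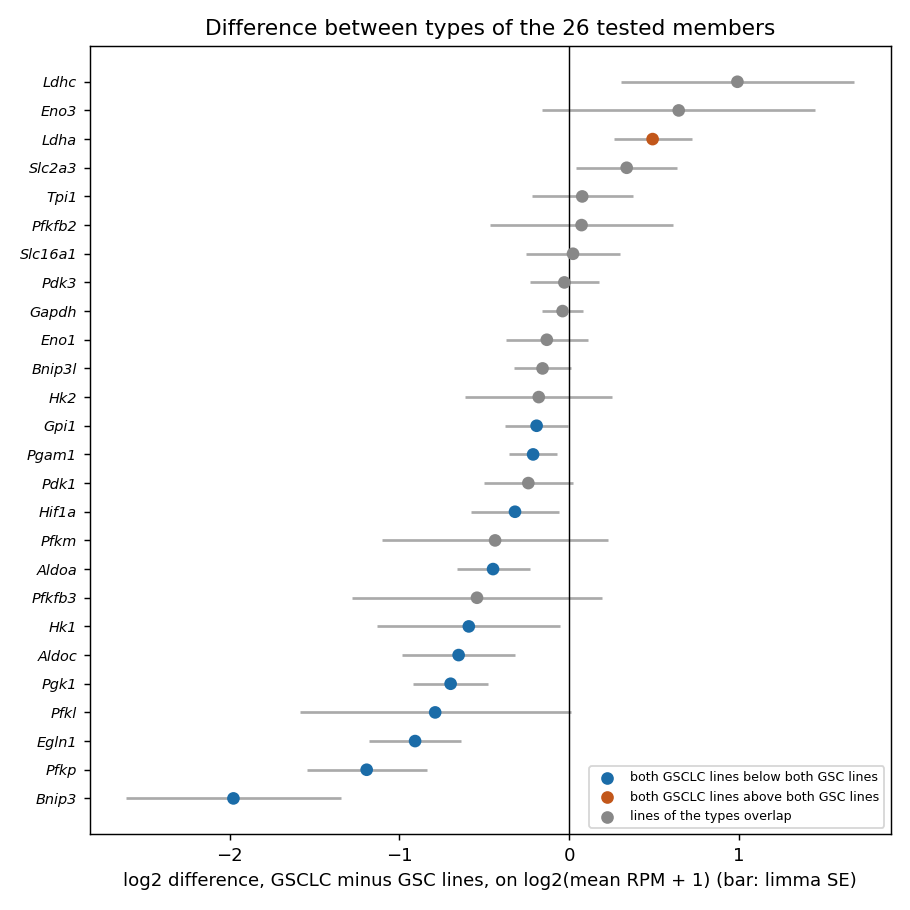
Difference of each of the 26 tested members between GSCLC and GSC lines (horizontal axis, log2 of mean RPM + 1, with the limma SE as a bar), sorted by size. Points right of 0 are 7 members, points left of 0 are 19, and colours show whether the lines of the types overlap.

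In the first steps of glycolysis, 8 of 9 tested members from hexokinase to triose phosphate isomerase were negative, beside 47.2% of all tested genes. Both GSCLC lines lay below both GSC lines in 6 of the 9, beside 17.6% of all tested genes. Pfkp, the platelet-type phosphofructokinase, had a mean of 90.1 RPM and 96.0 RPM in GSC1 and GSC2 against 27.6 RPM and 58.1 RPM in GSCLC1 and GSCLC4. The lowest, median and highest cells were 0.308, 29.6 and 499.8 RPM in GSC1, 0.844, 51.3 and 475 in GSC2, 0, 15.3 and 119.1 in GSCLC1 and 0.287, 46.3 and 179 in GSCLC4. GSC cells thus spread much higher than GSCLC cells although most cells of every line had the transcript, at 5 RPM or more in 25 of 29 cells in GSC1, 20 of 24 in GSC2, 24 of 30 in GSCLC1 and 23 of 24 in GSCLC4. The GSCLC lines themselves differed 2.07-fold, where folds here and below are ratios of mean RPM + 1 and so understate the ratio of low means. The log2 difference was -1.19 (SE 0.35, limma p = 0.00533, adjusted p = 0.409). Over 17 settings, the main one included, it lay between -1.72 and -0.53, and was -0.67 without GSCLC1 and -0.60 with the mean of log values (limma p = 0.294). In GSC2 a single cell made up 20.6% of the line's Pfkp signal.

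Aldoa, the main aldolase, had line means of 241 RPM and 223 RPM in GSC1 and GSC2 against 200.1 RPM and 143.7 RPM in GSCLC1 and GSCLC4. Its lowest, median and highest cells were 1.67, 181.6 and 794 RPM in GSC1, 1.90, 149.2 and 773 in GSC2, 6.90, 194 and 458 in GSCLC1 and 12.7, 136.5 and 395 in GSCLC4. The 2 GSC lines lay above the 2 GSCLC lines in mean but not in median, and the log2 difference was -0.45 (SE 0.21, limma adjusted p = 0.578). Aldoc, the brain-type aldolase, averaged 49.4 RPM and 50.9 RPM in GSC1 and GSC2 against 31.03 RPM and 32.1 RPM in GSCLC1 and GSCLC4. Over cells it ran, from lowest through median to highest, 0, 33.4 and 201 RPM in GSC1, 0, 21.4 and 302 in GSC2, 0, 1.42 and 165.4 in GSCLC1 and 0, 11.6 and 138.3 in GSCLC4. Its lines were apart by type, with a log2 difference of -0.65 (SE 0.33, limma adjusted p = 0.604), yet GSCLC1 had the lowest and GSCLC4 the highest share of cells at 5 RPM.

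Hk2, the insulin-responsive hexokinase that phosphorylates glucose, was 27.4 RPM and 64.9 RPM in GSC1 and GSC2 against 29.8 RPM and 46.4 RPM in GSCLC1 and GSCLC4. Cells ranged, lowest, median and highest, as 0, 16.2 and 115.1 RPM in GSC1, 0, 53.3 and 255 in GSC2, 0, 15.7 and 113.02 in GSCLC1 and 0.226, 48.03 and 102.1 in GSCLC4. The lines of one type differed more than the types did, since GSC2 was 2.32-fold above GSC1 and the GSCLC lines fell between. Hk1, the hexokinase found in most tissues, was lower, at 14.2 RPM and 16.5 RPM in GSC1 and GSC2 against 11.03 RPM and 8.72 RPM in GSCLC1 and GSCLC4. Its cells reached 0, 0.309 and 91.5 RPM in GSC1, 0, 3.21 and 79.9 in GSC2, 0, 0.872 and 173.1 in GSCLC1 and 0, 1.12 and 66.2 in GSCLC4, so the median cell of each line lay under 5 RPM. Both GSCLC means of Hk1 were below both GSC means (log2 difference -0.59, SE 0.54, limma adjusted p = 0.811), and a single cell gave 52.3% of the GSCLC1 signal.

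Gpi1, glucose-6-phosphate isomerase, was 247 RPM and 231 RPM in GSC1 and GSC2 against 204 RPM and 214 RPM in GSCLC1 and GSCLC4 and had lines apart by -0.19 in log2 (SE 0.19). Pfkm, the muscle-type phosphofructokinase, was 16.1 RPM and 13.6 RPM in GSC1 and GSC2 against 22.3 RPM and 4.86 RPM in GSCLC1 and GSCLC4, with lowest, median and highest cells of 0, 0.633 and 118.99 RPM in GSC1, 0, 0 and 148.8 in GSC2, 0, 0.396 and 206 in GSCLC1 and 0, 0 and 37.5 in GSCLC4. The GSCLC lines differed 3.98-fold and enclosed both GSC lines, and about the same share of cells had it in each line (10 of 29 cells in GSC1, 7 of 24 in GSC2, 10 of 30 in GSCLC1 and 6 of 24 in GSCLC4). Pfkl, the liver type, was 6.16 RPM and 5.31 RPM in GSC1 and GSC2 against 1.84 RPM and 4.33 RPM in GSCLC1 and GSCLC4. Tpi1, triose phosphate isomerase, was the positive member of these steps, at 52.3 RPM and 66.6 RPM in GSC1 and GSC2 against 68.7 RPM and 56.5 RPM in GSCLC1 and GSCLC4 (log2 difference 0.08, SE 0.30), and the types overlapped.

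The regulators PFKFB2 and PFKFB3 make fructose 2,6-bisphosphate, which activates phosphofructokinase, and neither separated the types. Pfkfb2 was 25.7 RPM and 12.2 RPM in GSC1 and GSC2 against 13.2 RPM and 26.5 RPM in GSCLC1 and GSCLC4, with lowest, median and highest cells of 0, 0.309 and 195 RPM in GSC1, 0, 0 and 142.2 in GSC2, 0, 0 and 155.1 in GSCLC1 and 0, 4.98 and 169.3 in GSCLC4, so GSC1 exceeded GSC2 2.02-fold. Pfkfb3 was 22.3 RPM and 4.87 RPM in GSC1 and GSC2 against 5.61 RPM and 8.75 RPM in GSCLC1 and GSCLC4, and its cells were 0, 0 and 239.8 RPM in GSC1, 0, 0 and 62.7 in GSC2, 0, 0 and 65.9 in GSCLC1 and 0, 0 and 50.6 in GSCLC4. GSC1 was 3.97-fold above GSC2, on 6 of 29 cells. The GSC1 cells came under 2 runs of serial numbers, 65 to 80 and 129 to 150. Pfkfb3 was 4.24 RPM over the 13 cells of the first and 37.0 over the 16 of the second, a 7.25-fold difference of mean RPM + 1 within the line.

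The energy-yielding steps had the highest summed level, and their median log2 difference was -0.13 against -0.45 in the first steps. Of their 5 tested members 4 were negative, beside 47.2% of all tested genes, and 2 had both GSCLC lines lower, beside 17.6%. Gapdh, glyceraldehyde-3-phosphate dehydrogenase, averaged 1595 RPM and 1532 RPM in GSC1 and GSC2 against 1456 RPM and 1589 RPM in GSCLC1 and GSCLC4. Its lowest, median and highest cells were 575, 1524 and 2784 RPM in GSC1, 546, 1474 and 2533 in GSC2, 602, 1461 and 2453 in GSCLC1 and 750.3, 1524 and 3160.2 in GSCLC4. The types overlapped, and the log2 difference was -0.04 (SE 0.12). Pgk1, the phosphoglycerate kinase of most tissues, averaged 164.02 RPM and 188 RPM in GSC1 and GSC2 against 116.5 RPM and 99.5 RPM in GSCLC1 and GSCLC4. Its cells ran 0, 94.6 and 656 RPM in GSC1, 0.401, 128 and 640.5 in GSC2, 0, 86.1 and 391 in GSCLC1 and 0.287, 65.2 and 392 in GSCLC4. The GSC lines held the highest single cells, and Pgk1 reached 5 RPM in 20 of 29 cells in GSC1, 19 of 24 in GSC2, 23 of 30 in GSCLC1 and 21 of 24 in GSCLC4. Its log2 difference was -0.70 (SE 0.22, limma p = 0.00808, adjusted p = 0.412). Over 17 settings it lay between -1.01 and -0.28, the latter with the mean of log values (limma p = 0.547).

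Pgam1, phosphoglycerate mutase, was 727 RPM and 774 RPM in GSC1 and GSC2 against 655 RPM and 639.6 RPM in GSCLC1 and GSCLC4, with lowest, median and highest cells of 219, 644 and 1974 RPM in GSC1, 194, 803 and 1389 in GSC2, 251, 618 and 1176 in GSCLC1 and 139.5, 613 and 1164 in GSCLC4. Both GSCLC means were lower, by -0.21 in log2 (SE 0.14, limma adjusted p = 0.704). Eno1, the enolase of most tissues, was 154.7 RPM and 113.6 RPM in GSC1 and GSC2 against 112 RPM and 130.3 RPM in GSCLC1 and GSCLC4, and its cells were 17.5, 95.9 and 583 RPM in GSC1, 17.4, 115.9 and 225 in GSC2, 5.04, 93.3 and 406 in GSCLC1 and 11.5, 126 and 357 in GSCLC4. The types overlapped (log2 difference -0.13, SE 0.24). These genes have near-identical copies in the genome, and a read that fits several copies can be split between them: the signal was not a whole number of reads in 50.5% of cells for Eno1, 41.1% for Pgam1 and 24.3% for Aldoa, against 0.935% for Gapdh, so their levels are uncertain. Eno3, the muscle enolase, was 1.77 RPM and 9.84 RPM in GSC1 and GSC2 against 9.08 RPM and 6.28 RPM in GSCLC1 and GSCLC4, with cells at 0, 0 and 29.9 RPM in GSC1, 0, 0 and 86.5 in GSC2, 0, 0 and 55.6 in GSCLC1 and 0, 0 and 47.0 in GSCLC4. Under the symbol Pkm2 the pyruvate kinase of the last step was 289 RPM and 276 RPM in GSC1 and GSC2 against 341 RPM and 264 RPM in GSCLC1 and GSCLC4, and its log2 difference was 0.09 (SE 0.19).

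**Figure D3:**
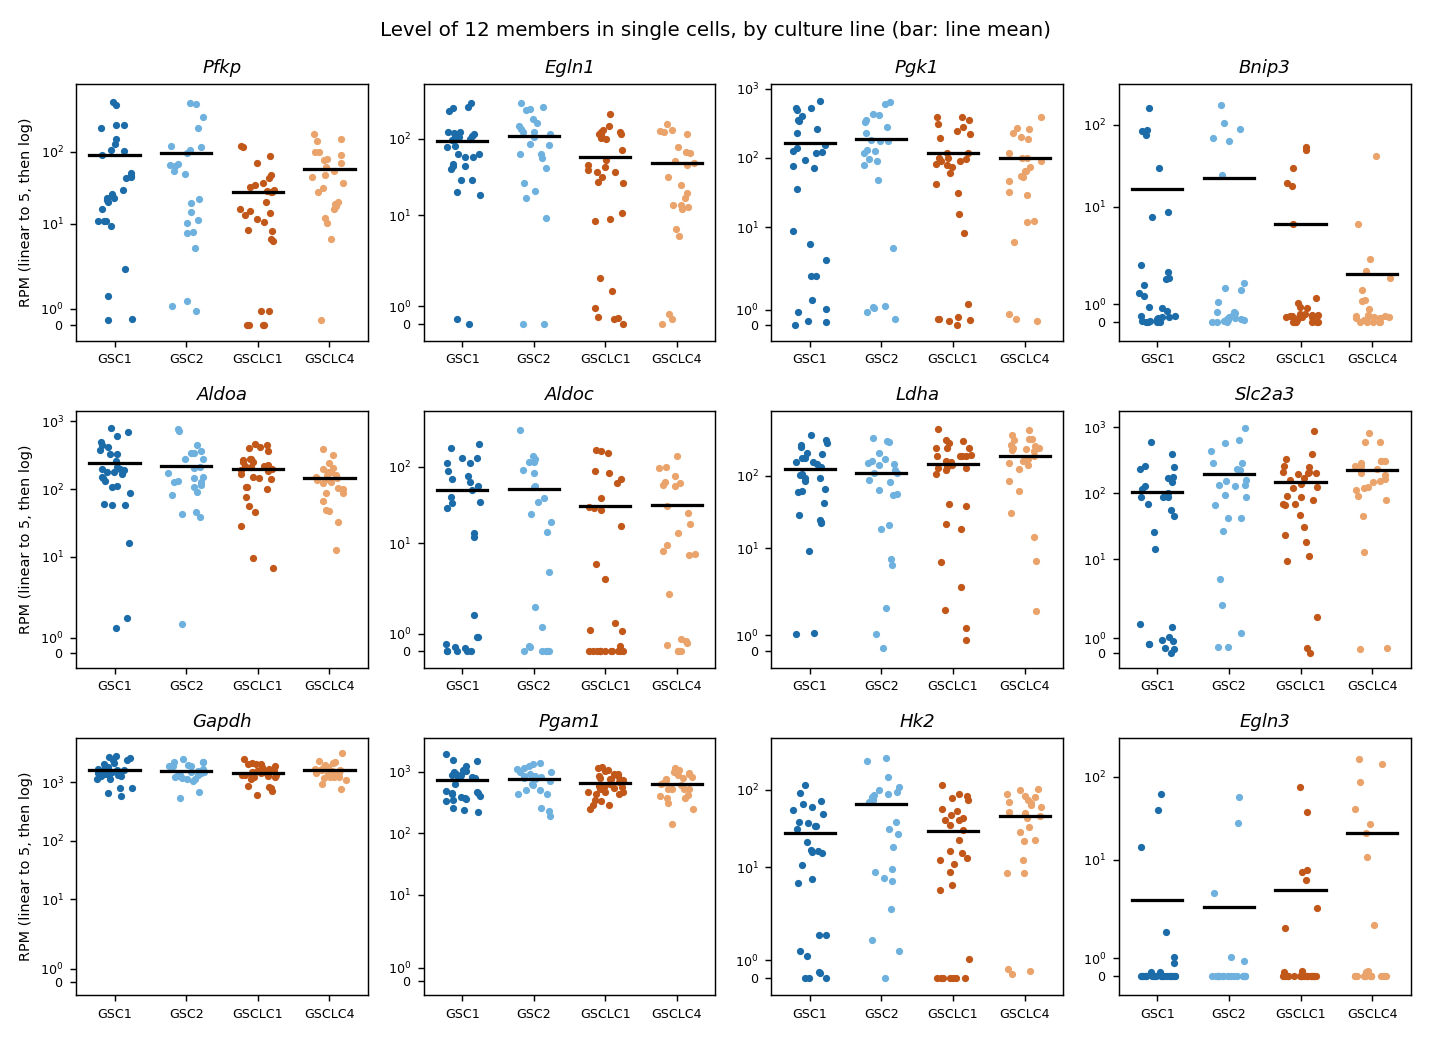
Level of 12 members in each cell (vertical axis, RPM, linear to 5 and logarithmic above) by line (horizontal axis); points are cells and the bar is the line mean. Pfkp, Egln1 and Pgk1 have means of 27.6 to 116.5 RPM in the GSCLC lines and 90.1 to 188 in the GSC lines, and Gapdh forms a narrow band in all 4 lines.

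Both tested lactate dehydrogenase genes had positive differences, as had 5558 of all 10519 tested genes. Ldha, the lactate dehydrogenase subunit that favours lactate formation, averaged 124 RPM and 109.2 RPM in GSC1 and GSC2 against 143.2 RPM and 187 RPM in GSCLC1 and GSCLC4. Its lowest, median and highest cells were 1.06, 100.5 and 359.5 RPM in GSC1, 0.211, 97.9 and 330.2 in GSC2, 0.703, 139.9 and 429 in GSCLC1 and 2.52, 201 and 419.7 in GSCLC4. Of the tested members, Ldha was the one whose GSCLC lines both lay above both GSC lines, and the log2 difference was 0.49 (SE 0.23, limma p = 0.0532, adjusted p = 0.565). Ldhc, the testis subunit of meiotic and later germ cells, averaged 3.07 RPM and 11.4 RPM in GSC1 and GSC2 against 10.9 RPM and 15.7 RPM in GSCLC1 and GSCLC4, with cells at 0, 0 and 61.8 RPM in GSC1, 0, 0 and 112.5 in GSC2, 0, 0 and 82.3 in GSCLC1 and 0, 0.254 and 149.5 in GSCLC4. It was lowest in GSC1 and the other 3 lines were alike within 10.9 to 15.7 RPM (log2 difference 0.99, SE 0.69, limma adjusted p = 0.724). The 8 spermatocyte and spermatid markers summed to 143.04, 116.2, 142.7 and 176.9 RPM in GSC1, GSC2, GSCLC1 and GSCLC4, nearly all of it Sycp3, with Prm1, Prm2 and Acrv1 at 0. Ldhb, the heart subunit, was not tested and was 1.54 RPM and 0.0352 RPM in GSC1 and GSC2 against 1.19 RPM and 2.94 RPM in GSCLC1 and GSCLC4.

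Of the 4 listed transporters of sugar and lactate, Slc2a3 and Slc16a1 had the most RPM. Slc2a3, the high-affinity glucose transporter GLUT3, averaged 105.1 RPM and 198 RPM in GSC1 and GSC2 against 148 RPM and 225 RPM in GSCLC1 and GSCLC4. Its lowest, median and highest cells were 0, 68.7 and 598 RPM in GSC1, 0.414, 129.3 and 976 in GSC2, 0, 106.2 and 879 in GSCLC1 and 0.292, 175.995 and 819 in GSCLC4. The lines of the types alternated, and the log2 difference was 0.34 (SE 0.30, limma adjusted p = 0.799). Without GSC1 the difference changed sign to -0.11. GSC1 was itself split: the first run of serial numbers averaged 39.9 RPM and the second 158.2, a 3.90-fold difference, and Slc2a3 and Pfkfb3 were the 2 of 22 members past 2-fold between the runs, where 17.1% of all such genes were. Slc2a1, the glucose transporter GLUT1, was too low to test, at 3.00 RPM and 5.37 RPM in GSC1 and GSC2 against 0.772 RPM and 1.04 RPM in GSCLC1 and GSCLC4. Its cells were 0, 0.374 and 19.0 RPM in GSC1, 0, 1.402 and 39.3 in GSC2, 0, 0 and 9.52 in GSCLC1 and 0, 0 and 5.03 in GSCLC4, and it reached 5 RPM in 6 of 29 cells in GSC1, 8 of 24 in GSC2, 1 of 30 in GSCLC1 and 1 of 24 in GSCLC4, so most of these cells lay in GSC lines.

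Slc16a1, the monocarboxylate transporter MCT1, was 66.7 RPM and 88.1 RPM in GSC1 and GSC2 against 70.7 RPM and 85.7 RPM in GSCLC1 and GSCLC4, with lowest, median and highest cells of 0.783, 57.3 and 187 RPM in GSC1, 1.84, 66.97 and 369 in GSC2, 0.312, 46.5 and 254 in GSCLC1 and 0.876, 81.2 and 270.0 in GSCLC4. The types overlapped (log2 difference 0.02, SE 0.28). Slc16a3, the transporter MCT4 of strongly glycolytic tissue, was 6.93 RPM and 2.28 RPM in GSC1 and GSC2 against 2.68 RPM and 2.19 RPM in GSCLC1 and GSCLC4, with cells at 0, 0 and 54.3 RPM in GSC1, 0, 0 and 19.3 in GSC2, 0, 0 and 57.5 in GSCLC1 and 0, 0 and 40.0 in GSCLC4, and was not tested. Of the pyruvate dehydrogenase kinases, Pdk3 was 212 RPM and 181.5 RPM in GSC1 and GSC2 against 175.996 RPM and 210.3 RPM in GSCLC1 and GSCLC4, and its cells were 10.5, 202 and 669 RPM in GSC1, 0.633, 174.8 and 458 in GSC2, 12.7, 165.99 and 421 in GSCLC1 and 54.9, 162.3 and 437 in GSCLC4. Pdk1 was 108.03 RPM and 129.6 RPM in GSC1 and GSC2 against 121.3 RPM and 82.4 RPM in GSCLC1 and GSCLC4, and its cells were 0.418, 57.2 and 588 RPM in GSC1, 0.401, 86.9 and 515 in GSC2, 0, 93.7 and 331 in GSCLC1 and 1.66, 62.3 and 282 in GSCLC4. Neither separated the types, with log2 differences of -0.03 (SE 0.20) for Pdk3 and -0.24 (SE 0.26) for Pdk1. Pdk2 was at most 4.58 RPM and Pdk4 at most 0.795 RPM in a line.

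All 4 tested hypoxia-linked members were negative, beside 47.2% of all tested genes, and 3 had both GSCLC lines lower, beside 17.6%. Egln3, which was too low to test, had both GSCLC means higher. Egln1, the main oxygen-sensing prolyl hydroxylase, averaged 93.1 RPM and 107.5 RPM in GSC1 and GSC2 against 57.7 RPM and 48.4 RPM in GSCLC1 and GSCLC4. Its lowest, median and highest cells were 0, 76.98 and 290.4 RPM in GSC1, 0, 94.8 and 291 in GSC2, 0, 38.2 and 212 in GSCLC1 and 0, 28.3 and 154 in GSCLC4. Both mean and median were lower in both GSCLC lines, with 5 RPM or more in 27 of 29 cells in GSC1, 22 of 24 in GSC2, 23 of 30 in GSCLC1 and 21 of 24 in GSCLC4. The SD between lines was 10.2 RPM for GSC and 6.57 RPM for GSCLC (n = 2 each). The log2 difference was -0.91 (SE 0.27, limma p = 0.00581, adjusted p = 0.412), and over the main and 16 alternative settings it lay between -1.35 and -0.78.

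Bnip3, a mitochondrial protein of mitophagy and cell death that HIF1A induces, averaged 16.3 RPM and 22.6 RPM in GSC1 and GSC2 against 6.16 RPM and 2.67 RPM in GSCLC1 and GSCLC4. Its lowest, median and highest cells were 0, 0.848 and 161.2 RPM in GSC1, 0, 0.534 and 178 in GSC2, 0, 0.358 and 53.0 in GSCLC1 and 0, 0.338 and 41.5 in GSCLC4. The median cell of every line was under 1 RPM, so the means rested on few cells, 7 of 29 cells in GSC1, 6 of 24 in GSC2, 6 of 30 in GSCLC1 and 2 of 24 in GSCLC4. These cells averaged 64.7 and 88.6 RPM in GSC1 and GSC2 against 29.4 and 23.8 RPM in GSCLC1 and GSCLC4. The log2 difference of -1.98 (SE 0.63, limma p = 0.00845, adjusted p = 0.412) was the largest of the tested members, and over 16 settings it lay between -2.46 and -0.32, with -0.84 from the mean of log values and -0.32 from medians over cells. It was not a whole number of reads in 38.6% of the cells where it was above 0. Bnip3l, its mitophagy paralog NIX, was in every cell, at 440.4 RPM and 523 RPM in GSC1 and GSC2 against 468 RPM and 395 RPM in GSCLC1 and GSCLC4. Its cells were 38.6, 448 and 1257 RPM in GSC1, 73.8, 518 and 1078 in GSC2, 136.95, 394 and 1254 in GSCLC1 and 68.8, 359 and 1062 in GSCLC4, the types overlapped (log2 difference -0.16, SE 0.17), and 55.1% of its values were not whole reads.

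Hif1a, the oxygen-regulated factor itself, was 86.0 RPM and 97.8 RPM in GSC1 and GSC2 against 68.5 RPM and 78.4 RPM in GSCLC1 and GSCLC4, with lowest, median and highest cells of 0.363, 46.9 and 363 RPM in GSC1, 0, 83.2 and 295 in GSC2, 0, 52.9 and 165.4 in GSCLC1 and 0, 75.9 and 212 in GSCLC4. The means were lower in both GSCLC lines (log2 difference -0.32, SE 0.26, limma adjusted p = 0.774), whereas on medians over cells the difference was 0.02. Egln3, the hypoxia-induced prolyl hydroxylase, was 4.15 RPM and 3.79 RPM in GSC1 and GSC2 against 4.68 RPM and 20.7 RPM in GSCLC1 and GSCLC4, and its cells were 0, 0 and 62.1 RPM in GSC1, 0, 0 and 56.8 in GSC2, 0, 0 and 75.9 in GSCLC1 and 0, 0 and 163.9 in GSCLC4. Both GSCLC means lay above both GSC means, but it was below the test floor in 3 lines and 3.83-fold higher in GSCLC4 than in GSCLC1, on 3 of 29 cells in GSC1, 2 of 24 in GSC2, 5 of 30 in GSCLC1 and 7 of 24 in GSCLC4. Vegfa, the growth factor for blood vessels, was 0.761 RPM and 1.11 RPM in GSC1 and GSC2 against 2.64 RPM and 0.180 RPM in GSCLC1 and GSCLC4 and reached 5 RPM in 2 of 29 cells in GSC1, 1 of 24 in GSC2, 2 of 30 in GSCLC1 and 0 of 24 in GSCLC4.

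Within a type, 3 of 21 members that reached 20 RPM in the higher line differed more than 2-fold between GSC2 and GSC1 (Hk2 higher in GSC2, Pfkfb2 and Pfkfb3 lower), where 8% of all such genes did. Between GSCLC4 and GSCLC1 there were also 3 of 21 (Pfkp and Egln3 higher in GSCLC4, Pfkm lower), where 9.57% of all such genes did. Each of these gaps is 1 line against 1 and has no replicate check.

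Every one of the 14 isozyme families had the same leading gene in all 4 lines. A family's share is the gene's part of the summed line mean RPM of the family's members, so genes outside the list do not enter. Of hexokinase RPM, Hk2 was 65.9% and 79.7% in GSC1 and GSC2 against 72.98% and 84.2% in GSCLC1 and GSCLC4, and Hk1 was the rest. The leading gene was also the larger one in single cells, in 79 of the 100 cells with any hexokinase signal. Of phosphofructokinase, Pfkp was 80.2% and 83.5% in GSC1 and GSC2 against 53.4% and 86.4% in GSCLC1 and GSCLC4, and Pfkm was 14.3% and 11.9% in GSC1 and GSC2 against 43.1% and 7.22% in GSCLC1 and GSCLC4. GSCLC1 stood apart in the share of its mean, while the median cell of that line still had 88.9% Pfkp. Pfkfb2 was 53.5% to 75.2% of the PFKFB sum. Within GSC1 it led in the serial run under 129, at 32.6 RPM against 4.24 RPM for Pfkfb3. In the run from 129 Pfkfb3 was the higher, at 37.0 RPM against 20.1 RPM, and reached 5 RPM in 4 of 16 cells. Aldoa was 81.4% to 86.6% of aldolase, and Aldoc led in 11 cells.

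Gapdhs and Pgk2, paralogs of germ cells, and Pgam2, the muscle paralog, were near 0, whereas the muscle gene Eno3 and the germ cell gene Ldhc reached 5 RPM in 20.6% and 21.5% of cells. Gapdhs had signal in 1 cell, at 0.222 RPM, Pgk2 in 1 cell, at 0.269 RPM, and Pgam2 was listed at 0 in all cells. Gapdh, Pgk1 and Pgam1 led in every cell with signal in their families, and the promoters of Pgk1 and Pgk2 printed above belong to such a pair. Eno1 was 92.03% to 97.6% of enolase, and Eno2, the neuronal enolase, had 5 RPM in 2 cells, both in GSC1. Ldha was 90.5% to 96.4% of lactate dehydrogenase, and Ldhb and Ldhc led in 2 cells each.

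Among transporters Slc2a3 was 97.2% to 99.5% of the glucose transporter sum and Slc16a1 90.6% to 97.5% of the monocarboxylate transporter sum. Slc2a1 was the larger in 6 of 29 GSC1 cells, 0 of 24 GSC2 cells, 1 of 29 GSCLC1 cells with signal and 0 of 24 GSCLC4 cells. Of the pyruvate dehydrogenase kinases 2 genes had sizeable shares: Pdk3 was 65.3% and 57.9% in GSC1 and GSC2 against 59.1% and 70.6% in GSCLC1 and GSCLC4, Pdk1 was 33.3% and 41.3% in GSC1 and GSC2 against 40.7% and 27.6% in GSCLC1 and GSCLC4, and Pdk3 led in 73 cells and Pdk1 in 34. Bnip3l was 95.9% to 99.3% of the BNIP3 sum. Of the summed Egln1 and Egln3 RPM, Egln1 was 95.7% and 96.6% in GSC1 and GSC2 against 92.5% and 70.02% in GSCLC1 and GSCLC4. GSCLC4 was thus the line with a sizeable Egln3 share of this sum. Egln3 exceeded Egln1 in 5 of its 24 cells and in no cell of the other lines. The prolyl hydroxylase gene Egln2 is no member and is not in this sum. It was 34.1 RPM and 41.4 RPM in GSC1 and GSC2 against 39.5 RPM and 35.1 RPM in GSCLC1 and GSCLC4, above Egln3 in each line.

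**Figure D4:**
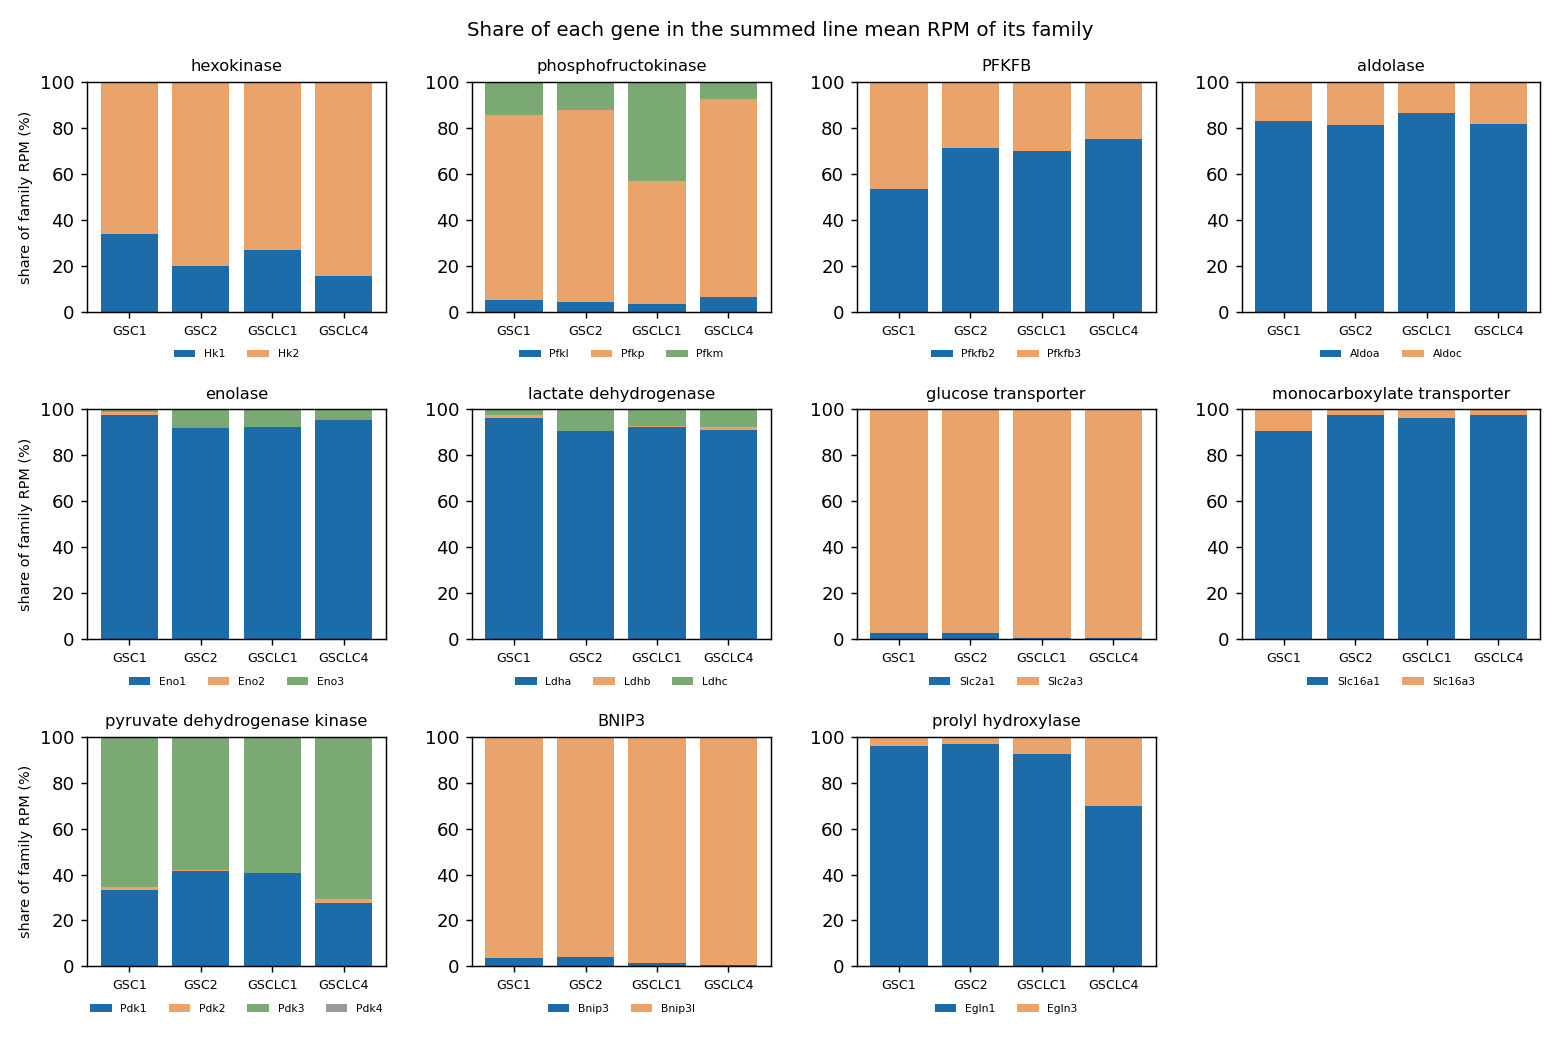
Share of each gene (vertical axis, percent) in the summed line mean RPM of its family, for 11 families and the 4 lines (horizontal axis); each colour is 1 gene. The leading gene is the same across lines, and Pfkm in GSCLC1 (43.1%), Pfkfb3 in GSC1 (46.5%) and Egln3 in GSCLC4 (30.0%) are the departures of the minor genes.

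Across the cells of a line, more pairs of members correlated positively than negatively, and least clearly so in GSCLC1. Spearman correlations were taken over the 29, 24, 30 and 24 cells of each line for the 18 members with at least 20 RPM in every line, and the median of the 4 lines was used. Cells of a line share their culture, and all values share the scaling to library size and the detection limit of the cell, so these are descriptions. Over all pairs of these members the median was 0.087, beside 0.0090 over all pairs of 5820 genes at this level, whose 5th and 95th percentiles were -0.18 and 0.20. Above 0 were 73.9% of the members' pairs, beside 53.1% of all pairs, and by line this share was 77.1% and 69.9% in GSC1 and GSC2 against 53.6% and 64.7% in GSCLC1 and GSCLC4, beside 51.4% to 52.4% of all pairs. In every line 35 of the members' pairs (22.9%) were positive and 0 negative, beside 7.69% and 5.86% of all pairs. By line the members' median was 0.15 and 0.17 in GSC1 and GSC2 against 0.016 and 0.078 in GSCLC1 and GSCLC4, so it was higher in both GSC lines, and a difference between lines was not tested.

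Each of the 6 highest pairs held Aldoa, Tpi1 or Pgam1. Aldoa and Pgam1 had 0.51 and 0.58 in GSC1 and GSC2 against 0.29 and 0.45 in GSCLC1 and GSCLC4 (median 0.48). Aldoa and Eno1 had 0.64 and 0.45 in GSC1 and GSC2 against 0.46 and 0.18 in GSCLC1 and GSCLC4 (median 0.45). For Tpi1 and Ldha the values were 0.47 and 0.34 in GSC1 and GSC2 against 0.49 and 0.39 in GSCLC1 and GSCLC4 (median 0.43). In these 3 pairs every line was positive. Aldoa and Pgk1 were close in the GSC lines and less so in the GSCLC lines, at 0.58 and 0.65 in GSC1 and GSC2 against 0.09 and 0.25 in GSCLC1 and GSCLC4 (median 0.41). Pgam1 and Slc2a3 had 0.40 and 0.44 in GSC1 and GSC2 against -0.00 and 0.40 in GSCLC1 and GSCLC4 (median 0.40), with GSCLC1 the line without it. Tpi1 and Gapdh had 0.38 and 0.36 in GSC1 and GSC2 against 0.30 and 0.41 in GSCLC1 and GSCLC4 (median 0.37). Aldoa, Pgam1 and Eno1 are the members with copies named above, and the part of reads shared between copies in the first 2 pairs was not tested.

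The 3 lowest pairs each held a pyruvate dehydrogenase kinase. Slc2a3 and Pdk1 had 0.15 and -0.30 in GSC1 and GSC2 against -0.28 and -0.17 in GSCLC1 and GSCLC4 (median -0.22), Pfkp and Pdk1 had -0.22 and 0.13 in GSC1 and GSC2 against -0.19 and -0.24 in GSCLC1 and GSCLC4 (median -0.20), and Slc16a1 and Pdk3 had -0.12 and -0.23 in GSC1 and GSC2 against -0.28 and 0.04 in GSCLC1 and GSCLC4 (median -0.18). In each of them 1 line had the other sign. Set against the mean standardised level of the other 17 members, Aldoa had the highest median correlation over lines at 0.59, then Tpi1 at 0.51, Pgam1 at 0.47 and Ldha at 0.45. At the other end were Egln1 at 0.06, Slc16a1 at 0.04, Bnip3l at 0.02 and Pdk1 at -0.08. The mean level of the 18 members itself correlated with the number of genes detected in a cell at 0.36 to 0.40 in each line, and with the spike-in RPM at -0.18 to -0.13, and the part of these in the pairs was not tested. With spike-in scaling the median over the members' pairs was 0.18. This scaling multiplies all genes of a cell by the same factor, and no value over all gene pairs is given with it. The 0.18 therefore cannot be set against the 0.0090 of all pairs.

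**Figure D5:**
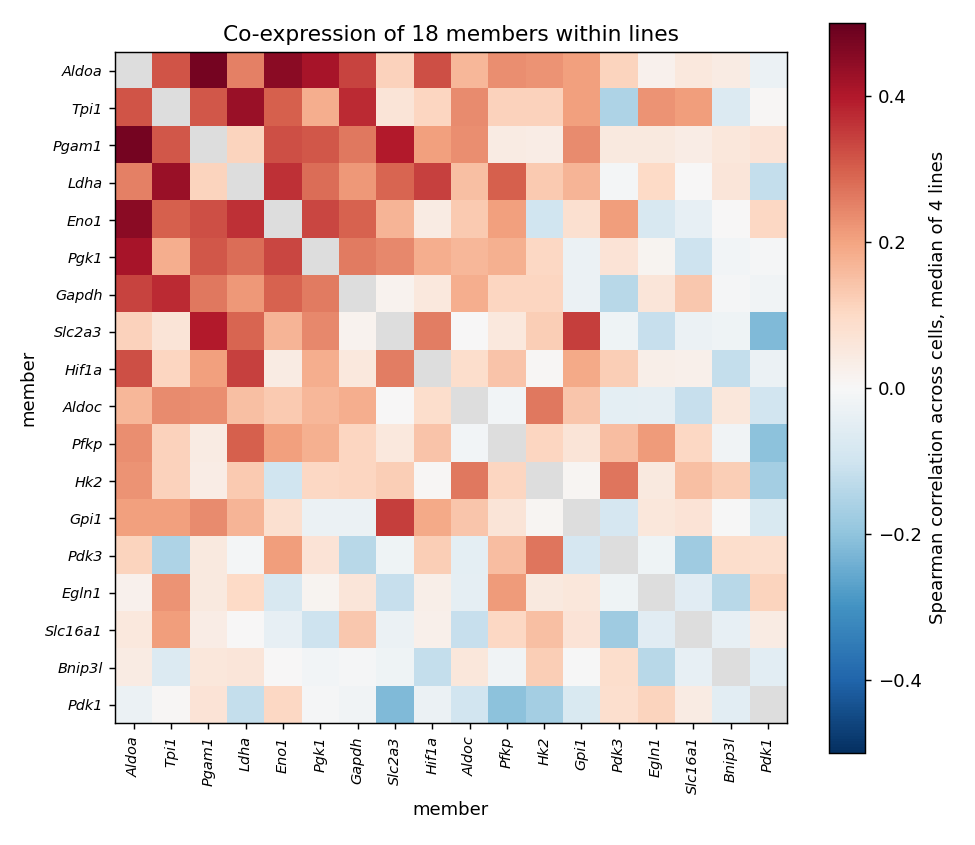
Spearman correlation across cells (colour, median of the 4 lines) of each pair of the 18 members with at least 20 RPM in every line, ordered by correlation with the other members on both axes; the diagonal is grey. Aldoa, Tpi1, Pgam1, Ldha, Eno1 and Pgk1 form the positive corner, and the row of Pdk1 is mostly near or below 0.

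Of the genes that are no members, the 8 whose cell-to-cell pattern was most like the mean of the 18 members were, by median correlation over the 4 lines, C230062I16Rik (0.50), Mif (0.50), Gm5506 (0.48), Usp39 (0.45), Rap1gds1 (0.43), Bcar1 (0.43), Pik3r3 (0.42) and Klhl21 (0.41). They were picked as the highest of all such genes, so high medians follow from the choice. Single lines fell far lower: Rap1gds1 was -0.099 in GSCLC1, Usp39 0.097 in GSC1, and Klhl21 0.12 and Pik3r3 0.16 in GSC2. RefSeq names Gm5506 as Eno1b, and its signal was not whole reads in 53.3% of cells, close to the 50.5% of Eno1. For Mif, a cytokine that is also among the further pathway genes below, that share was 46.7%, and for C230062I16Rik 47.7%.

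Other genes of these pathways were split between the directions. Of 78 further genes of sugar, pyruvate, lactate and hypoxia pathways, 75 were in the table and 54 were tested. Of these 25 were negative and 29 positive, with a median log2 difference of 0.03, beside 0.03 over all tested genes. None had a limma adjusted p under 0.05, and 5 had an unadjusted p under 0.05, 2 lower and 3 higher, beside 8.93% of all tested genes. Lines were apart in 8 of 54 in the lower and 11 in the higher direction, beside 17.6% and 21.4% of all tested genes. The 6 largest differences among those with 20 RPM or more were in 3 hypoxia-linked transcription factors, 2 metabolic enzymes and a lipid droplet protein. Arnt2, a partner of HIF proteins, was 0.255 RPM and 11.97 RPM in GSC1 and GSC2 against 33.7 RPM and 17.9 RPM in GSCLC1 and GSCLC4 (log2 difference 2.67, SE 0.92). Bhlhe40, a transcription factor that hypoxia induces, was 30.4 RPM and 59.3 RPM in GSC1 and GSC2 against 13.2 RPM and 10.6 RPM in GSCLC1 and GSCLC4 (log2 difference -1.76, SE 0.47). Epas1, which encodes HIF2A, was 16.8 RPM and 58.1 RPM in GSC1 and GSC2 against 8.68 RPM and 19.3 RPM in GSCLC1 and GSCLC4 (log2 difference -1.21, SE 0.60). Epas1 overlapped between the types, and Arnt2 and Bhlhe40 did not. Gpd1l, a glycerol-3-phosphate dehydrogenase, was 31.3 RPM and 27.4 RPM in GSC1 and GSC2 against 20.1 RPM and 17.98 RPM in GSCLC1 and GSCLC4 (log2 difference -0.60, SE 0.42). Pdhb, a subunit of pyruvate dehydrogenase, was 167.5 RPM and 164.7 RPM in GSC1 and GSC2 against 305 RPM and 204 RPM in GSCLC1 and GSCLC4 (log2 difference 0.58, SE 0.22). Plin2, a lipid droplet protein, was 24.2 RPM and 7.16 RPM in GSC1 and GSC2 against 20.3 RPM and 20.6 RPM in GSCLC1 and GSCLC4 (log2 difference 0.58, SE 0.58). Their limma adjusted p-values were 0.314 for Bhlhe40, 0.448 for Arnt2, 0.485 for Pdhb, 0.594 for Epas1, 0.725 for Gpd1l and 0.832 for Plin2.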

How the data were processed

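Single-cell expression was measured by SC3-seq in 4 culture lines. The authors deposited expression signal as RPM; the submitters' processing notes name build mm10, Cufflinks 2.2.0, TopHat 1.4.1 and cutadapt 1.3, and give no rule for reads with several map positions. RPM covered gene rows, with 92 spike-in RNAs on top of them, so spike-ins entered no test, and 6440 empty spike-in entries were read as 0. The most frequent value above 0 in a cell was taken as 1 read: 85.6% to 92.4% of values per cell came within 0.05 of a whole read number, too few for a count model.

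The line value of a gene was its mean RPM over cells, and tests used limma 3.58.1 in R 4.3.3 (eBayes with a mean-variance trend) on log2(mean RPM + 1), which understates changes of low genes. Genes with at least 5 RPM in 2 lines were tested, with Benjamini-Hochberg adjustment over all of them and a threshold of 0.05. Since gene and spike-in RPM together exceed the total that RPM allows, the values were treated as signal. Line was the replicate, and cells were only described. Python 3.11.15 and scipy 1.17.1 were used for the rest.

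The members and lists were chosen with earlier results of these data known. Named were the 8 tested members with the largest difference at 20 RPM or more in the higher type, the first and second gene of each family with at least 5 RPM in 1 line, members over 2-fold apart within a type, the 6 highest and 3 lowest pairs, 8 neighbours, and 6 other pathway genes; others are named to account for every member. The fit was tested on simulated data. Pseudocount, filter, line summary, scaling, variance trend, GSC1 run, the GSC1 cell set aside and leaving out each line were varied. Serial runs are those of the titles and are not stated to be batches.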

Additional observations from a re-analysis of the deposited data

Results flagged for a closer look

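One GSC1 cell was left out of every comparison, and 3 members were higher in it than in any cell used. Gapdh was 4268 RPM in it, against a highest value of 3160 RPM elsewhere. Pgk1 was 1321 RPM, against 655.7 RPM elsewhere. Ldha was 450.4 RPM, against 429 RPM elsewhere. The fibroblast and feeder markers summed to 45844 RPM in this cell and the germ cell markers to 1270.5 RPM, it held 5748 detected genes and 91374 RPM of spike-ins, and 15 members reached 5 RPM. The part of any of these in the 3 levels was not tested.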

How the results depend on the processing

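No member passed the limma threshold under any of 16 settings. The 4 members at an unadjusted p under 0.05 became 2 with the mean of log values, Egln1 and Slc2a3. With medians over cells they became 2, Egln1 and Ldha. There were 3 without the variance trend and 3 of 19 with a filter at 20 RPM. In the other settings with all 4 lines the number stayed at 4 or 5, not always with the same members. Without a filter Pfkp left (limma p = 0.0596) and Aldoc entered (limma p = 0.0119). With the GSC1 cells of serial numbers under 129 alone, Pgk1 left (limma p = 0.0879) and Aldoa entered (limma p = 0.0329). Among all genes the 10 calls became 20 with a pseudocount of 10 RPM, 3 with 0.1 RPM, 21 with a filter at 20 RPM, 0 without a filter (1407 at an unadjusted p under 0.05), 0 with medians over cells (716), 35 with spike-in scaling, 0 without the variance trend (874), and 4 or 3 with the GSC1 cells of serial numbers under 129 or from 129 alone. Leaving out 1 line gave 3 (without GSCLC4) to 39 (without GSCLC1), with 5 without GSC1. The lone line is then assumed to vary like the others. The members' median of -0.20 was -0.088 with the mean of log values, where the median of all genes was 0.15, -0.014 with medians over cells, -0.30 with spike-in scaling, -0.12 with the later GSC1 cells, and -0.28 (without GSC1) to -0.22 without 1 line. The members' median therefore stayed negative in these settings, but was near 0 on medians over cells. Of the named members that were tested, 10 had lines apart by type, and 14 to 19 without 1 line, when fewer lines have to be apart: 17 without GSC1, 19 without GSC2 and 16 without GSCLC1. Some of these members were named for the size of this same difference, so the counts follow in part from the choice. They cannot show how far the types separate, and no share of all genes without 1 line is given beside them. Hif1a reversed to 0.021 on medians over cells and Slc2a3 to -0.11 without GSC1, beside 0.79 without GSC2 and 1.07 with the mean of log values. Over pairs the median correlation of 0.087 was 0.18 with spike-in scaling, for which no value over all gene pairs is given. For every other reversal or move the cause was not tested. No paired analysis was possible because the lines share no replicate numbers. Depth limits the members under 5 RPM, about 10 reads, to the statement that they were low.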
